A study of Homo sapiens and Mus musculus with 213 samples.

Results

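The genes described here are the 7 inhibitors of cyclin-dependent kinases (CDKs) and the 3 D-type cyclins of human cells. The inhibitors are CDKN2A, CDKN2B, CDKN2C and CDKN2D of the INK4 family and CDKN1A, CDKN1B and CDKN1C of the CIP/KIP family, and the cyclins are CCND1, CCND2 and CCND3. They were picked by name, through the match of Ensembl identifiers to GENCODE symbols. No value entered this rule, but earlier results of these data were known when the genes were chosen. All 10 were found among the 58336 genes listed in the RNA-seq files, and all 10 passed the minimum mean of 10 normalized read counts. The RNA came from HEK293T, an immortalized human embryonic kidney line that carries the large T antigen of SV40 and the adenovirus E1A and E1B genes. Of the 213 samples of the study, 6 RNA-seq libraries, 3 of each line described here, are reported, and the other assays were not used here. MYC WT cells have the unedited MYC promoter, with its natural G-quadruplex (G4), a four-stranded structure of guanine-rich DNA. MYC MUT cells carry point mutations in the guanine runs that prevent folding. The edited line came from single sorted cells and the edit was homozygous, and the labels give no treatment for these libraries. Whether MYC WT cells were cloned in the same way is not clear from the paper, so cloning and editing may not be told apart. The sources used here do not state which clones, or how many, gave the 3 libraries of each line, so p-values measure the spread between these libraries, which may be narrower than that between clones.

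D-type cyclins bind CDK4 and CDK6, and the complexes phosphorylate the retinoblastoma protein RB1, which then releases E2F factors that switch on genes of DNA synthesis. INK4 proteins bind CDK4 and CDK6 and keep the cyclin from joining them. CIP/KIP proteins bind complexes of cyclin and kinase, inhibit those of CDK2, and also help cyclin D and CDK4 to assemble. In HEK293T cells large T antigen and E1A bind RB1, a state that both lines share. MYC has long been described as a repressor of CDKN1A and CDKN2B, acting with the zinc finger factor ZBTB17 (MIZ-1).

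Each library held 68170323 to 79913764 reads on genes. The edited gene itself had 20020, 28396 and 21580 normalized read counts in MYC WT and 10693, 11176 and 12400 in MYC MUT. MYC was therefore below every MYC WT library in each MYC MUT library (log2 fold change -1.02, standard error 0.19, limma adjusted p = 0.00182). All 6 HEK293 cell markers were expressed, with a summed level of 84547 to 97068 in MYC WT and 90608 to 102345 in MYC MUT. Among them NEFL and KRT8 were higher in MYC MUT (log2 fold change 1.07 and 0.77) and NEFM lower (-0.58). The 6 leukocyte markers summed to at most 74.9 and the 6 endothelial markers to at most 95.3 in any library, both highest in MYC MUT. CD3E was at 0 in MYC WT, and CLDN5 in both lines. The 6 fibroblast markers summed to 1246 to 1492 in MYC WT and 2055 to 2160 in MYC MUT, with COL1A2 at 0 in MYC WT. The headers of the MYC WT files carry the name of a sequencing pool that those of MYC MUT lack, so pool and editing cannot be told apart.

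Of the 10 genes, 7 have an entry among the RefSeq promoters (GRCh38.p14): CDKN2A, CDKN2B, CDKN2C, CDKN2D, CDKN1A, CDKN1B and CCND3. The promoters of the 3 inhibitors that passed the test between MYC MUT and MYC WT are shown. Motif counts of the other genes with an entry are given after them. CDKN2A has a pair of start sites. The upstream one leads to p14ARF, a growth inhibitor translated in another frame, and the downstream one to p16INK4a, the INK4 inhibitor, and reads counted per gene do not separate these products. Each sequence holds the 250 bases before a start site, 5′ to 3′ on the strand of transcription, with the GC box GGGCGG (either strand) and the G4 motif (4 runs of at least 3 guanines, 1 to 7 bases apart, either strand) in capitals.
CDKN2A upstream start (ARF), chr9:21995325-21995574, minus strand: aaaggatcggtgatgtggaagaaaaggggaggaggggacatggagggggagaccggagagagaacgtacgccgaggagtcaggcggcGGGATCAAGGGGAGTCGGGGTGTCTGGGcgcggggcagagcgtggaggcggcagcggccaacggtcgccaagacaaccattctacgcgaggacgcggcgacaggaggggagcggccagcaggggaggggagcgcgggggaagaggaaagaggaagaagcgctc
CDKN2A downstream start (INK4a), chr9:21974858-21975107, minus strand: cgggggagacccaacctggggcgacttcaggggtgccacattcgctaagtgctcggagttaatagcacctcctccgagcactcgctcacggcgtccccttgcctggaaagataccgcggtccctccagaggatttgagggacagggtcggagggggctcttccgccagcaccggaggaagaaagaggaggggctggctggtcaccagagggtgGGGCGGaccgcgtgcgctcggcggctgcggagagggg
CDKN2B, chr9:22009306-22009555, minus strand: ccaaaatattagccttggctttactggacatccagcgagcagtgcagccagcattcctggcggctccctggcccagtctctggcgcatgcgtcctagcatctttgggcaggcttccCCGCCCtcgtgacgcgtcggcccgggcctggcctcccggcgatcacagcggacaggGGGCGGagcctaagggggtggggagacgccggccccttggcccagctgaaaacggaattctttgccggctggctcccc
CDKN1A, chr6:36678464-36678713, plus strand: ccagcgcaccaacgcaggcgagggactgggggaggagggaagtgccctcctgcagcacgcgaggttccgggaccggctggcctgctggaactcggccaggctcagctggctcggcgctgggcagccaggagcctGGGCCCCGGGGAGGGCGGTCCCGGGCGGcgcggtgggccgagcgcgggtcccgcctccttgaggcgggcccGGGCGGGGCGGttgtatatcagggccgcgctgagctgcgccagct
The upstream CDKN2A promoter held 1 G4 motif of 28 bases, from 163 to 136 bases before the start, and no GC box. The downstream CDKN2A promoter held 1 GC box and CDKN2B 2, neither with a G4 motif. The CDKN1A promoter held 4 GC boxes and 1 G4 motif of 25 bases, 116 to 92 bases before the start, and the motif and GC boxes share bases there. Of the other genes with an entry, CDKN2D held 2 GC boxes and CDKN1B 1, neither with a G4 motif. The 3 CDKN2C promoters held 0, 5 and 1 GC boxes and 0, 2 and 0 G4 motifs. The 3 CCND3 promoters held 5, 2 and 0 GC boxes and 1, 2 and 1 G4 motifs. Of all 35116 promoters of this length, 42.6% held a GC box and 23.5% a G4 motif. No MYC E-box (CACGTG) and no TATAAA was found in the 4 sequences shown. Of all promoters 6.34% held this E-box and 10.7% TATAAA, and 4 sequences are too few to set against these shares. The 3 CDKN2C promoters held 1, 0 and 1 E-boxes. CDKN2D, CDKN1B and CCND3 had none, and none of these other genes had TATAAA.

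In MYC MUT against MYC WT, 4 of the 10 genes passed the test. CCND1 and CDKN1A were higher and CDKN2A and CDKN2B lower, all by more than 2-fold. A gene passed when the limma adjusted p, over all 20884 genes tested, was under 0.05 and the log2 fold change was beyond 0.5 in either direction. Over all genes tested 21.4% passed, 11.3% higher and 10.1% lower. Higher genes made up 52.8% of those that passed, and 64.3% when values were rescaled to equal totals, under which the same 4 of the 10 genes passed. The 3 MYC MUT libraries did not overlap the 3 MYC WT libraries for 5 of the 10 genes (the 4 above and CDKN2C), against 52.3% of all genes. The median log2 fold change was 0.03 for the 10 genes and -0.0034 for all genes, with changes in both directions among the 10.

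**Figure D1:**
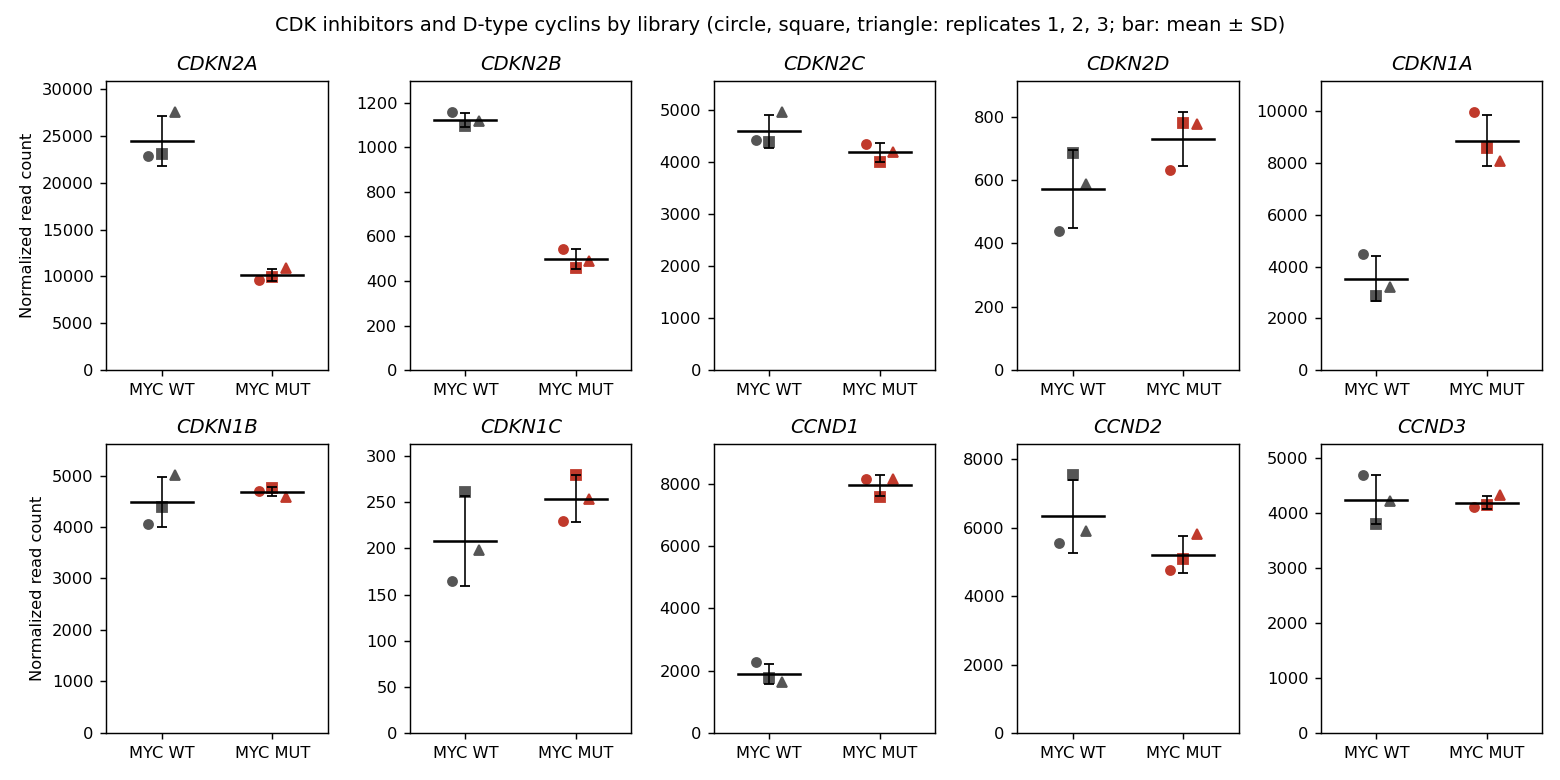
Normalized read count (y axis, from 0) of each gene in each of 6 libraries, by line (x axis). Circles, squares and triangles are replicates 1, 2 and 3, and bars show mean ± SD (n = 3). CDKN2A and CDKN2B are lower and CDKN1A and CCND1 higher in all 3 MYC MUT libraries than in any MYC WT library.

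Among the INK4 genes, CDKN2A (ENSG00000147889, chr9:21967752-21995301, minus strand) was the most abundant. Its normalized read count was 22868, 23018 and 27543 in MYC WT and 9646, 9971 and 10888 in MYC MUT. All MYC MUT libraries lay far below the lowest MYC WT library, and their mean was 41.5% of the MYC WT mean (log2 fold change -1.26, standard error 0.09, limma adjusted p = 2.86e-06). Exons of the antisense lncRNA CDKN2B-AS1 cover 15.3% of the exon bases of CDKN2A, and the use of strand in counting is not given in the sources used here. CDKN2B-AS1 itself had at most 180 normalized read counts in any library, and whether reads were shared was not tested.

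CDKN2B (ENSG00000147883, chr9:22002903-22009305, minus strand) codes for p15INK4b, which is induced by TGF-beta in many epithelial cells. Its count was 1158, 1096 and 1118 in MYC WT and 544, 458 and 492 in MYC MUT, or 44.3% of the MYC WT mean. This is a difference of -1.18 on the log2 scale (standard error 0.09, limma adjusted p = 3.96e-06). CDKN2A and CDKN2B lie next to each other on the short arm of chromosome 9.

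Other genes around them were also measured. MTAP, the neighbouring gene of methionine salvage, had 9610, 9148 and 8370 normalized read counts in MYC WT and 4806, 4534 and 4631 in MYC MUT (log2 fold change -0.96, adjusted p = 2.56e-06). CDKN2B-AS1 had 138, 158 and 180 in MYC WT and 71.2, 104 and 96.4 in MYC MUT (-0.81, adjusted p = 0.00459). DMRTA1, on the other side of CDKN2B, did not pass the test in MYC MUT (0.08, adjusted p = 0.784), at 63.6 to 80.9 normalized read counts in MYC WT and 71.0 to 79.5 in MYC MUT. Of the 33 tested genes within 5 Mb of CDKN2A, counting CDKN2B, 26 had a log2 fold change below 0, 18 passed the test as lower and 1 as higher, and their median was -0.55. Of these 33 genes, 3 had a lower log2 fold change than CDKN2A. The shift was not seen along the whole arm: the median was 0.09 for the 18 genes 5 to 10 Mb toward the telomere. It was 0.19 for the 6 genes at 10 to 15 Mb and -0.10 for the 40 genes at 15 to 20 Mb. The 7 genes 20 to 25 Mb away had a median of 0.86. Toward the centromere the median was -0.47 for the 9 genes within 5 Mb and -0.26 for the 8 genes 5 to 10 Mb away. It was -0.35 for the 90 genes at 10 to 15 Mb and -0.39 for the 38 genes at 15 to 20 Mb. The 3 genes 20 to 25 Mb away had a median of -0.24. The part of this regional level in the values of CDKN2A and CDKN2B was not tested.

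**Figure D2:**
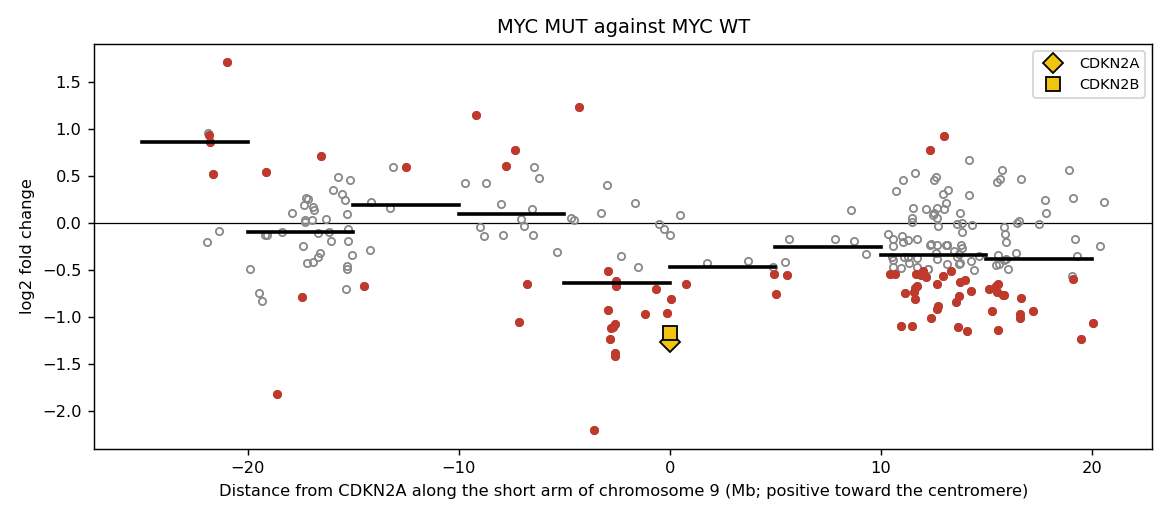
Log2 fold change (y axis) of tested genes on the short arm of chromosome 9 against their distance from CDKN2A in Mb (x axis), in MYC MUT against MYC WT. Filled circles passed the test, black lines are medians of 5 Mb windows with at least 5 genes, and the diamond and square mark CDKN2A and CDKN2B, which lie below the -0.65 median of the 24 genes in the window ending at CDKN2A in MYC MUT.

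CDKN2C (ENSG00000123080, chr1:50960745-50974634, plus strand), which codes for p18INK4c, differed little. It had 4435, 4394 and 4967 normalized read counts in MYC WT and 4359, 4011 and 4197 in MYC MUT. MYC MUT lay just under MYC WT (log2 fold change -0.13, standard error 0.07, adjusted p = 0.156). The median over the 90 genes within 5 Mb was -0.23 in MYC MUT, lower than the value of CDKN2C itself.

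CDKN2D (ENSG00000129355, chr19:10566460-10569059, minus strand), which codes for p19INK4d, did not pass the test. Its count was 441, 687 and 587 in MYC WT and 632, 781 and 777 in MYC MUT. Replicate 1 was the lowest in each line, and the lines overlapped. MYC MUT differed by 0.37 on the log2 scale (standard error 0.24, adjusted p = 0.245).

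Among the CIP/KIP genes, CDKN1A (ENSG00000124762, chr6:36676460-36687337, plus strand) codes for p21, which arrests the cell cycle when DNA is damaged. It had 4501, 2858 and 3209 normalized read counts in MYC WT and 9960, 8566 and 8056 in MYC MUT, a 2.52-fold higher mean. Every MYC MUT library was above every MYC WT library (log2 fold change 1.35, standard error 0.18, limma adjusted p = 0.000198). Replicate 1 was the highest in each line, by 0.57 in MYC WT and 0.26 in MYC MUT on the log2 scale over the mean of the other libraries. The 155 tested genes within 5 Mb of CDKN1A had a median of 0.08 in MYC MUT, and 10 of them had a higher log2 fold change than CDKN1A.

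CDKN1B (ENSG00000111276, chr12:12685498-12722369, plus strand) codes for p27, an inhibitor that accumulates in resting cells and is controlled mainly through its breakdown. It had 4055, 4391 and 5015 normalized read counts in MYC WT and 4708, 4764 and 4592 in MYC MUT. The lines overlapped, with a log2 fold change of only 0.07 (standard error 0.08, adjusted p = 0.527). CDKN1C (ENSG00000129757, chr11:2883213-2885775, minus strand), the imprinted gene of p57, was the least expressed of the 10. It had 165, 262 and 198 in MYC WT and 229, 280 and 253 in MYC MUT. As with CDKN2D, replicate 1 was the lowest in each line. CDKN1C did not pass the test (log2 fold change 0.31, standard error 0.28, adjusted p = 0.423), and the lines overlapped. The lncRNA KCNQ1OT1, which is transcribed from the imprinting centre that silences CDKN1C in cis, had 85.7 to 126 normalized read counts in MYC WT and 114 to 149 in MYC MUT (0.28, adjusted p = 0.256).

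Among the D-type cyclins, CCND1 (ENSG00000110092, chr11:69641156-69654474, plus strand), the cyclin most often amplified in tumours, had 2261, 1766 and 1648 normalized read counts in MYC WT. In MYC MUT it had 8134, 7560 and 8154, a mean 4.20-fold that of MYC WT. This was the widest gap among the 10 genes (log2 fold change 2.08, standard error 0.12, limma adjusted p = 7.67e-07). All MYC MUT libraries lay far above the highest MYC WT library. The 191 tested genes within 5 Mb had a median of 0.14 in MYC MUT, and 2 of them had a higher log2 fold change than CCND1. Exons of LTO1 on the opposite strand cover 10.4% of the exon bases of CCND1. LTO1 itself had 1642 to 1912 normalized read counts in MYC WT and 1647 to 1751 in MYC MUT (-0.08, adjusted p = 0.437).

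CCND2 (ENSG00000118971, chr12:4269771-4305353, plus strand) and CCND3 (ENSG00000112576, chr6:41934934-42050357, minus strand) did not pass the test. CCND2 had 5540, 7550 and 5901 normalized read counts in MYC WT and 4751, 5081 and 5813 in MYC MUT. Its log2 fold change in MYC MUT was -0.27 (standard error 0.13, adjusted p = 0.12). CCND3 had 4690, 3802 and 4214 in MYC WT and 4096, 4139 and 4313 in MYC MUT, with a log2 fold change of -0.01 (standard error 0.08, adjusted p = 0.916). The lines overlapped for both genes.

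**Figure D3:**
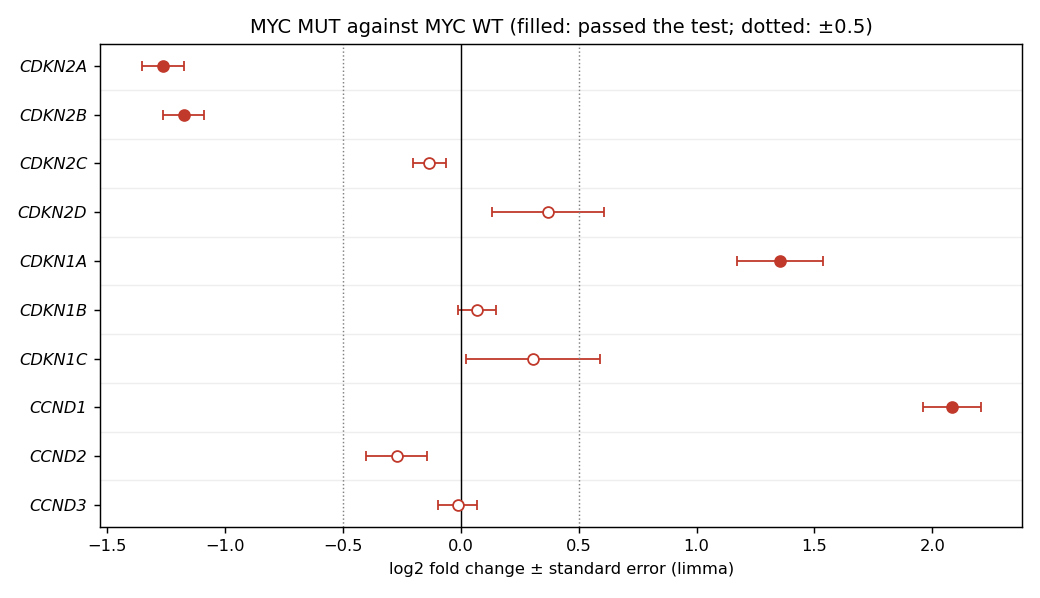
Log2 fold change ± standard error from limma (x axis) of the 10 genes (y axis) in MYC MUT against MYC WT. Filled circles passed the test and dotted lines mark a log2 fold change of 0.5 in either direction. The values run from -1.26 for CDKN2A to 2.08 for CCND1.

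Normalized read counts per kb of exon allow levels of different genes to be set side by side. In MYC WT, CDKN2A was first with 6300.2 ± 684 (SD, n = 3) per kb, followed by CDKN2C (1524 ± 106), CDKN1A (1176 ± 289), CCND2 (793 ± 134), CCND3 (735 ± 77.1), CDKN1B (485 ± 52.7), CCND1 (397 ± 68.4), CDKN2D (380 ± 82.3), CDKN2B (281 ± 7.96) and CDKN1C (84.0 ± 19.8). Neighbours in this order overlapped for CDKN2C and CDKN1A, CCND2 and CCND3, CDKN1B and CCND1, and CCND1 and CDKN2D. In MYC MUT, CDKN1A (2958 ± 329) and CDKN2A (2617 ± 166) overlapped at the top, and CCND1 (1670 ± 70.8) came next, above CCND2 and CCND3. These levels depend on the length used: per kb of the longest annotated transcript, CDKN2A had 9666 in MYC MUT and CDKN1A 3909.

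The make-up of each family followed these levels. The summed level of the INK4 genes was 7938 to 9405 per kb in MYC WT and 4484 to 4833 in MYC MUT. The CIP/KIP genes summed to 1534 to 2007 per kb in MYC WT and 3287 to 3926 in MYC MUT. For the D-type cyclins the sums were 1816 to 1983 and 2943 to 3189 per kb. MYC MUT did not overlap MYC WT in all 3 sums, lower for INK4 and higher for CIP/KIP and D-type cyclins. CDKN2A made up 74.2% ± 1.17 (SD, n = 3) of the INK4 sum in MYC WT and 56.7% ± 1.31 in MYC MUT. CDKN1A made up 66.8% ± 7.02 of the CIP/KIP sum in MYC WT and 82.8% ± 1.61 in MYC MUT. CCND1 made up 20.6% ± 2.91 of the D-type cyclin sum in MYC WT and 54.8% ± 1.65 in MYC MUT, where its level per kb of exon was above those of CCND2 and CCND3. The ratio of D-type cyclin to INK4 RNA per kb was 0.229 ± 0.0311 in MYC WT and 0.661 ± 0.0113 in MYC MUT. With all 7 inhibitors in the denominator it was 0.189 ± 0.0224 and 0.373 ± 0.0178. With the longest annotated transcript as the length, these shares and ratios differed. CDKN2A then made up 91.1% of the INK4 sum in MYC WT and 82.2% in MYC MUT. CCND1 made up 14.2% and 42.8% of the D-type cyclin sum and CCND3 56.3% and 39.9%, and CCND1 and CCND3 overlapped in MYC MUT, at 1784 to 1924 and 1711 to 1801 per kb. The ratio of D-type cyclin to INK4 RNA was then 0.124 in MYC WT and 0.373 in MYC MUT. These are ratios of RNA and say nothing of protein. Reads of CDKN2A are not split between p14ARF and p16INK4a, so the INK4 sums, shares and ratios may hold p14ARF RNA.

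**Figure D4:**
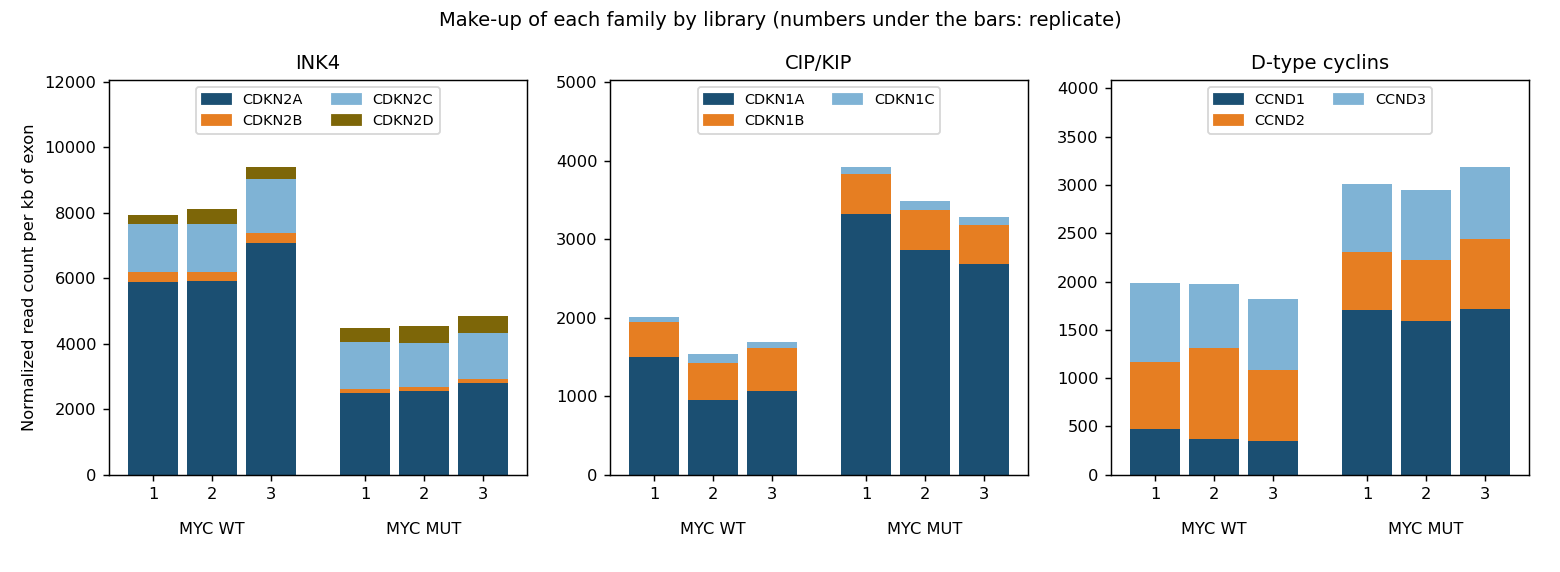
Normalized read count per kb of exon (y axis, from 0) of the INK4, CIP/KIP and D-type cyclin genes, stacked by gene, in each of 6 libraries (x axis, by line and replicate). The INK4 stacks are lowest in MYC MUT, at 4484 to 4833 per kb, while the CIP/KIP and D-type cyclin stacks are highest there.

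Of the 15 other cyclins and CDKs of the cell cycle, none passed the test in MYC MUT against MYC WT. Over all genes tested 21.4% passed. The median log2 fold change of the 15 genes was 0.11. With edgeR and DESeq2 0 passed as well, and with values rescaled to equal totals 1 passed. By limma, 6 of the 15 had an adjusted p under 0.05 and were under the fold threshold. The share of all genes with an adjusted p under 0.05 alone is not given here. CDK4, the partner of D-type cyclins, had 25420, 23551 and 28245 normalized read counts in MYC WT and 28955, 29432 and 30796 in MYC MUT (0.21, adjusted p = 0.0368). CDK6 had 10913, 12142 and 9454 in MYC WT and 8103, 7513 and 8791 in MYC MUT. It was lower in each MYC MUT library (-0.41, adjusted p = 0.00554), under the fold threshold. CDK2 differed by 0.11 (adjusted p = 0.184).

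Of 17 pocket proteins and E2F factors, 1 passed as higher and 2 as lower in MYC MUT, against 11.3% and 10.1% of all genes tested. The median of the list was -0.03. RB1 had 6162, 6465 and 5859 normalized read counts in MYC WT and 4957, 4748 and 4544 in MYC MUT. Its log2 fold change of -0.38 (adjusted p = 0.00168) was under the fold threshold. E2F1, an activating factor released from RB1, rose from 5764, 6234 and 6000 to 8944, 9046 and 8890 (0.58, standard error 0.06, adjusted p = 2.58e-05). E2F5, a factor that works with the pocket protein p130, fell from 3545, 3043 and 3067 to 1557, 1511 and 1530 (-1.07, adjusted p = 7.44e-06), and LIN9 of the DREAM complex fell by 0.55 (adjusted p = 0.000493). LIN9 was under the fold threshold with equal totals (-0.47) and without MYC MUT replicate 3 (-0.49).

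Of 26 E2F target genes, 3 passed as higher and 2 as lower in MYC MUT, against 11.3% and 10.1% of all genes tested. The median of the list was 0.11. The higher genes were MYBL2 (0.75, adjusted p = 1.18e-05), a transcription factor of dividing cells, TK1 (0.67, adjusted p = 4.99e-05) of thymidine salvage and RRM2 (0.59, adjusted p = 0.00111) of deoxynucleotide synthesis. The lower genes were CDT1 (-0.98, adjusted p = 0.00212) and ORC1 (-0.52, adjusted p = 0.000286), which both license replication origins. ORC1 was under the fold threshold with equal totals (-0.45) and without MYC WT replicate 3 (-0.48) or MYC MUT replicate 1 (-0.49).

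**Figure D5:**
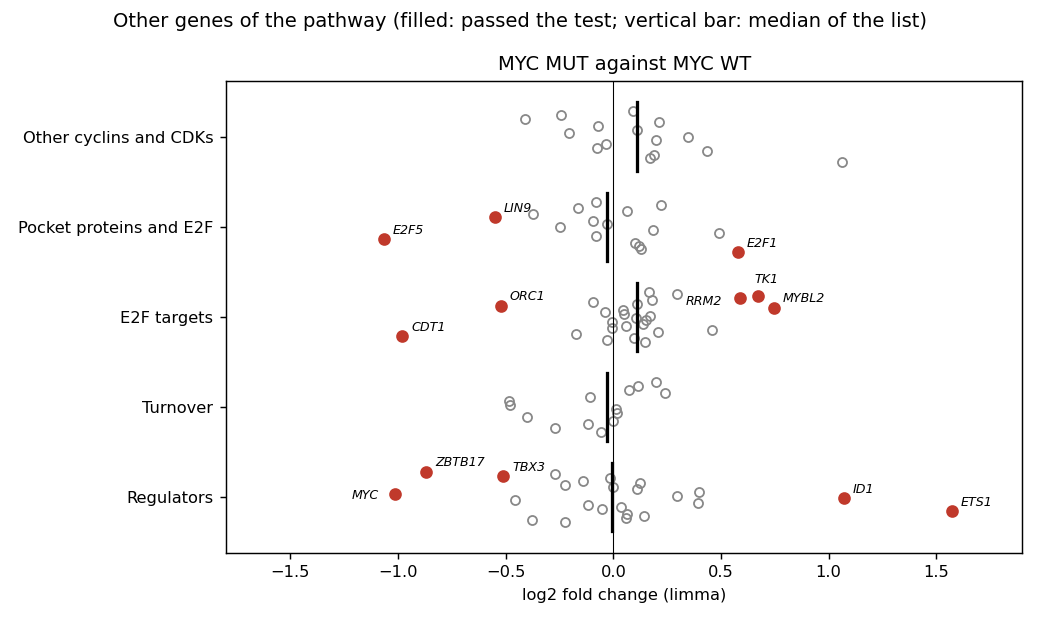
Log2 fold change from limma (x axis) of the other genes of the pathway by list (y axis), in MYC MUT against MYC WT. Each circle is a gene, filled and named where it passed the test, and the vertical bar is the median of its list, which lies between -0.03 and 0.11 for each list.

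Of 24 regulators of these genes, 2 passed as higher and 3 as lower in MYC MUT, against 11.3% and 10.1% of all genes tested. ETS1, which can activate CDKN2A, had 274, 267 and 348 normalized read counts in MYC WT and 765, 878 and 998 in MYC MUT (1.57, adjusted p = 1.02e-05). ID1, an inhibitor of basic helix-loop-helix factors, was higher in MYC MUT (1.07, adjusted p = 0.00658). Beside MYC itself, its partner ZBTB17 fell from 1737, 2216 and 2149 to 1033, 1121 and 1172 (-0.87, adjusted p = 9.53e-05), and the T-box repressor TBX3 fell by 0.51 (adjusted p = 0.0163). TBX3 did not pass in 6 of 20 alternatives, among them edgeR and the fits without MYC WT replicate 1 (-0.43, adjusted p = 0.0459), MYC MUT replicate 2 (-0.48, adjusted p = 0.0571) or MYC MUT replicate 3 (-0.48, adjusted p = 0.0559). Of 14 genes for the turnover of these proteins, such as SKP2 and FBXW7, none passed in MYC MUT by limma, edgeR or DESeq2. Over all genes tested 21.4% passed by limma. By limma, 6 of the 14 had an adjusted p under 0.05 and were under the fold threshold, a share not set against that of all genes. The median was -0.01 for the regulators and -0.03 for the turnover genes. Of the 22 overlapping and neighbouring genes, 21 were tested. Among them 2 passed as higher and 5 as lower in MYC MUT, against the same shares of all genes. The higher genes were KCNQ1 (1.48, adjusted p = 0.00187) and PHLDA2 (0.91, adjusted p = 0.00825), both of the imprinted region that holds CDKN1C. The wider surroundings were also higher: the 108 tested genes within 5 Mb of CDKN1C had a median of 0.25. Of these, 32 passed as higher and 7 as lower. The lower genes included APOLD1 (-1.21, adjusted p = 0.000247) beside CDKN1B, CCND2-AS1 (-1.15, adjusted p = 0.0066) and MTAP.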

How the data were processed

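Poly(A) RNA was sequenced in strand-specific libraries. The authors mapped the reads to hg38 with bwa mem (BWA 0.7.17-r2188), an aligner without spliced alignment, ran Picard MarkDuplicates, and divided each read count per GENCODE gene by the DESeq2 size factor of its library. The deposited values are thus a signal of 0 or more. Whole reads (within 0.01) were recovered for 100% of them and served alternatives only. The counting tool and its use of strand are not given in the sources used here, so overlapping antisense genes could share reads.

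Symbols and positions came from GENCODE release 44 on GRCh38 (57754 of 58336 identifiers matched) and promoters from RefSeq. The test was limma 3.58.1 in R 4.3.3 with a trend, on log2(normalized count + 1), in a single fit of 9 libraries and 20884 genes with a mean of at least 10, with Benjamini-Hochberg adjustment. The fit and its minimum mean include 3 libraries that are not reported here, like some genes and results that needed them. Fold changes on this scale understate those of low genes. Genes passed with a log2 fold change beyond 0.5 and an adjusted p under 0.05. An exact two-sided permutation test of 3 libraries against 3 cannot give a p below 0.1. The fits were tested on simulated data. Alternatives were pseudocounts of 0.1 and 10, other minimum means, eBayes without a trend, rescaling to equal totals or upper quartiles, other thresholds, fits of 2 groups, edgeR 4.0.16 and DESeq2 1.42.0 on the reads, a replicate block, the length of the longest transcript, and leaving out each library. Chi-square divided by its degrees of freedom was 8.32 to 55.6 for pairs of libraries of a line, so none repeats another.

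The genes and lists were chosen with earlier results of these data known. Named are the 10 genes, MYC, the related genes CDK4, CDK6, CDK2, RB1, E2F1, CDKN2B-AS1, MTAP and KCNQ1OT1, and up to 3 genes per direction that passed in each list. DMRTA1 and LTO1 were named after their values were seen. Plots were made in Python 3.11.15 with matplotlib 3.10.9, numpy 2.4.6 and pandas 2.3.3.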

Additional observations from a re-analysis of the deposited data

How the results depend on the processing

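CDKN2A, CDKN2B, CDKN1A and CCND1 passed in MYC MUT against MYC WT under each of the 22 alternatives, and no other of the 10 genes did. Values near 0 changed sign, with no call. CCND3 was at 0.0617 with equal totals and 0.0017 with equal upper quartiles, and leaving out single libraries gave -0.0016 to 0.1517 for CDKN1B and -0.0882 to 0.0632 for CCND3. The cause was not tested. With the replicate number as a block no call among the 10 genes changed, with CCND1 at 2.08 and CDKN2A at -1.26. CDKN2D at 0.37 (limma adjusted p = 0.0211) and CCND2 at -0.27 (limma adjusted p = 0.0263) were then under the fold threshold only. The count of all genes that passed moved from 4476 to 4970. Same-numbered libraries deviated together by r = 0.049 to 0.33, and not every library correlated best with its own number, so they were not taken as paired. Rescaling to equal totals moved the share of higher genes among those that passed from 52.8% to 64.3%. The lowest count of the 10 genes in any library was 165 normalized reads, and 3 libraries per line limit the estimate of the spread.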
